A study of Sus scrofa with 24 samples.

Results

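Olive oil and beef tallow were compared as dietary fats in the loin muscle of barrows, which are castrated male pigs. The comparison took every animal with these fats and this sex on its label, 3 barrows on olive oil and 3 on beef tallow, which is 6 of the 24 pigs studied. All were crossbred pigs (Landrace × Large White × Duroc), and the fat made up 3.0% of the feed. The trial held 72 pigs in 24 pens of 3, and the animals weighed about 71 kg at about 130 days of age when they were allotted. Total RNA of longissimus dorsi, the long muscle of the back, was measured on 1 Affymetrix array per pig. The other 18 pigs were barrows on coconut or soybean oil and gilts, which are young females, on the 4 fats, with 3 pigs per group. The labels number the pigs, and these numbers name them here: the olive oil barrows were pigs 17, 18 and 22, and the beef tallow barrows were pigs 16, 21 and 24. Values of single pigs are given in that order.

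Olive oil consists largely of triglycerides of oleic acid, a monounsaturated fatty acid, whereas beef tallow is richer in the saturated palmitic and stearic acids. Loin muscle consists mostly of fast muscle fibres, with fat cells and fibroblasts lying between them. Muscle fibres burn fatty acids, the fat cells make and store triglycerides, and the fibroblasts lay down collagen and the rest of the extracellular matrix. Immediate early genes, which code for transcription factors and signalling regulators, respond within minutes to stress, exercise or hormones.

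The deposited values were probe set signals in linear intensity units, and a difference below is olive oil minus beef tallow in mean log2(signal + 1), with its standard error from the fit. Of the 23999 probe sets other than controls, 14399 with a mean signal of at least 94.1 were tested. The marker list of skeletal muscle was present in all 6 barrows, with summed signals of 297899 to 362981 on olive oil and 276939 to 367885 on beef tallow for its 11 tested genes. Of the 8 liver, kidney and gut markers on the array only APOA1 reached the filter. Its signals lay well above the filter, between 792 and 1098 on olive oil and between 1243 and 1681 on beef tallow (difference -0.53 ± 0.365). The median signal of the array was 142.8, 144.1 and 153.5 in the olive oil barrows, against 163.4, 174.4 and 162.4 in the beef tallow barrows. These medians did not overlap (exact permutation test, two-sided, p = 0.1, the smallest that 3 against 3 allows). The ratio of 3' to 5' signal of GAPDH, a sign of RNA quality, overlapped between the groups, at 1.15, 1.16 and 1.14 against 1.25, 1.09 and 1.07. The log2 ratio of actin was 1.06, 1.26 and 0.92 against 1.84, 1.06 and 1.20, with beef tallow pig 16 the highest. Correlations of log2 signals lay between 0.931 and 0.938 among the olive oil barrows, between 0.919 and 0.932 among the beef tallow barrows, and between 0.908 and 0.934 across the groups.

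In the olive oil barrows the transcription factor gene NR4A3 and the lipogenic regulator MID1IP1 were higher. The collagen chaperone FKBP10, the adipokine C1QTNF3 and the acetylcholine receptor subunit CHRNA1 were lower. In all, 12 of the 14399 probe sets (0.0833%) passed an adjusted p under 0.05 in limma, 4 of them higher (0.0278%) and 8 lower (0.0556%). At an unadjusted p under 0.05, 2155 probe sets differed (15.0%), 617 higher (4.29%) and 1538 lower (10.7%). The median difference over all tested probe sets was -0.065. The 3 olive oil barrows lay entirely above or below the 3 beef tallow barrows at 3035 probe sets (21.1%), above at 1025 (7.12%) and below at 2010 (14.0%).

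The count of calls depended on single pigs and on the probe sets tested. With all 23999 probe sets tested, none passed and 2695 had an unadjusted p under 0.05. Without olive oil pig 17, or without beef tallow pig 16 or 21, none passed; without pig 18, 2 passed. Without olive oil pig 22, 30 passed, and without beef tallow pig 24, 166 passed, among them all 12 of the full set. Pigs of the other groups enter through the estimate of the spread: leaving out pig 1, 2, 3, 6, 8, 14 or 15 left no call, pig 13 left 1, and leaving out pig 7, 12 or 19 gave 59, 136 or 21. Each of the other 7 runs gave between 9 and 16. Centring the arrays on their medians shifted all tested probe sets by a median of 0.182. Then 12 passed, 8 higher and 4 lower, and 8 of them were among the 12. The differences below should be read against that shift.

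**Figure D1:**
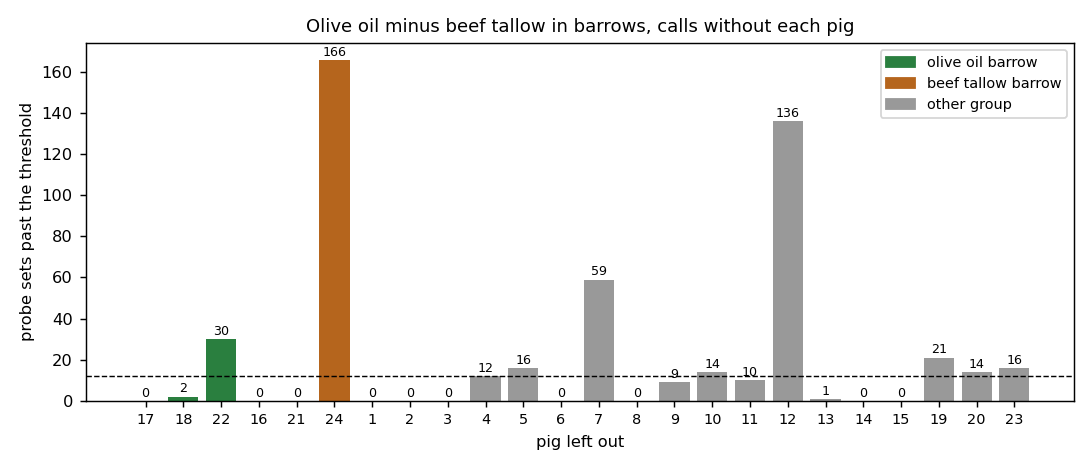
Number of probe sets past the threshold for olive oil minus beef tallow in barrows (vertical axis) when the pig on the horizontal axis was left out. Green bars are olive oil barrows, brown bars beef tallow barrows and grey bars pigs of the other 6 groups; the dashed line marks the 12 calls with all 24 pigs, and the bars run between 0 and 166.

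NR4A3, an orphan nuclear receptor of the immediate early class, had signals of 4202, 1391 and 869 in the olive oil barrows, against 162, 142 and 217 in the beef tallow barrows. All 3 olive oil pigs lay above all 3 beef tallow pigs, with pig 17 far above the other two. The difference was 3.33 ± 0.63 (adjusted p = 0.0455), and without pig 17 it was 2.68 and did not pass. Its second probe set gave brighter signals, of 12329, 12039 and 5546 against 1119, 1291 and 1269, and a difference of 2.94 ± 0.60 that just missed the threshold (adjusted p = 0.0593). MID1IP1 makes a small protein that promotes polymerisation of acetyl-CoA carboxylase, the first enzyme committed to fatty acid synthesis. Its signals were 3190, 2614 and 3089 on olive oil, against 1035, 1180 and 1027 on beef tallow. Both groups were tight and well apart, and the difference was 1.45 ± 0.28 (adjusted p = 0.04997). The other 2 higher probe sets carry no gene symbol and rose by 1.60 ± 0.28 and 2.33 ± 0.44. The first had signals of 164, 225 and 211 on olive oil, against 62.4, 49.0 and 88.5 on beef tallow. The second had signals of 278, 343 and 291 against 58.9, 54.8 and 65.2. In both, all 3 beef tallow values were below the signal used as the filter.

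FKBP10, an endoplasmic reticulum prolyl isomerase that helps collagen fold, had signals of 143, 182 and 215 in the olive oil barrows, against 1013, 669 and 444 in the beef tallow barrows. The groups did not overlap, and the difference was -1.91 ± 0.33 (adjusted p = 0.0399). C1QTNF3, a secreted protein of the C1q and tumour necrosis factor related family, had signals of 545, 374 and 536 against 3502, 2167 and 1264. Its difference was -2.15 ± 0.38 (adjusted p = 0.0399), with beef tallow pig 24 nearest to the olive oil pigs. In CHRNA1, the alpha subunit of the muscle acetylcholine receptor, the signals were 201, 233 and 143 on olive oil, against 4089, 1806 and 421 on beef tallow. The olive oil pigs lay close together while the beef tallow pigs spread widely, and the difference was -2.95 ± 0.53 (adjusted p = 0.0399). Without beef tallow pig 16 it was -2.20 and did not pass, and without pig 24 it was -3.84.

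The lower calls also included 4 other named genes. NSL1, a subunit of the MIS12 kinetochore complex, had signals of 123, 248 and 174 on olive oil, against 674, 421 and 322 on beef tallow, and a difference of -1.37 ± 0.25. Its 3 tested probe sets disagreed, with differences between -1.37 and 0.53. DDX50, a nucleolar RNA helicase, had signals of 62.9, 107 and 114 against 400, 263 and 251, and a difference of -1.69 ± 0.31. HARBI1, derived from a transposase, had signals of 46.4, 52.5 and 60.3 against 118, 102 and 127. All 3 olive oil values of HARBI1 were below the signal used as the filter. Its difference was -1.11 ± 0.20, and each of these 3 genes had an adjusted p of 0.0399. LOC100519643, an uncharacterised locus, had signals of 81.4, 109 and 152 against 275, 288 and 260 and a difference of -1.30 ± 0.23, and an unnamed probe set one of -1.19 ± 0.22. In every one of the 12 called probe sets the 6 barrows separated by diet without overlap, as they did at 21.1% of all tested probe sets. The 12 were called on these same values, so their separation adds no support.

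**Figure D2:**
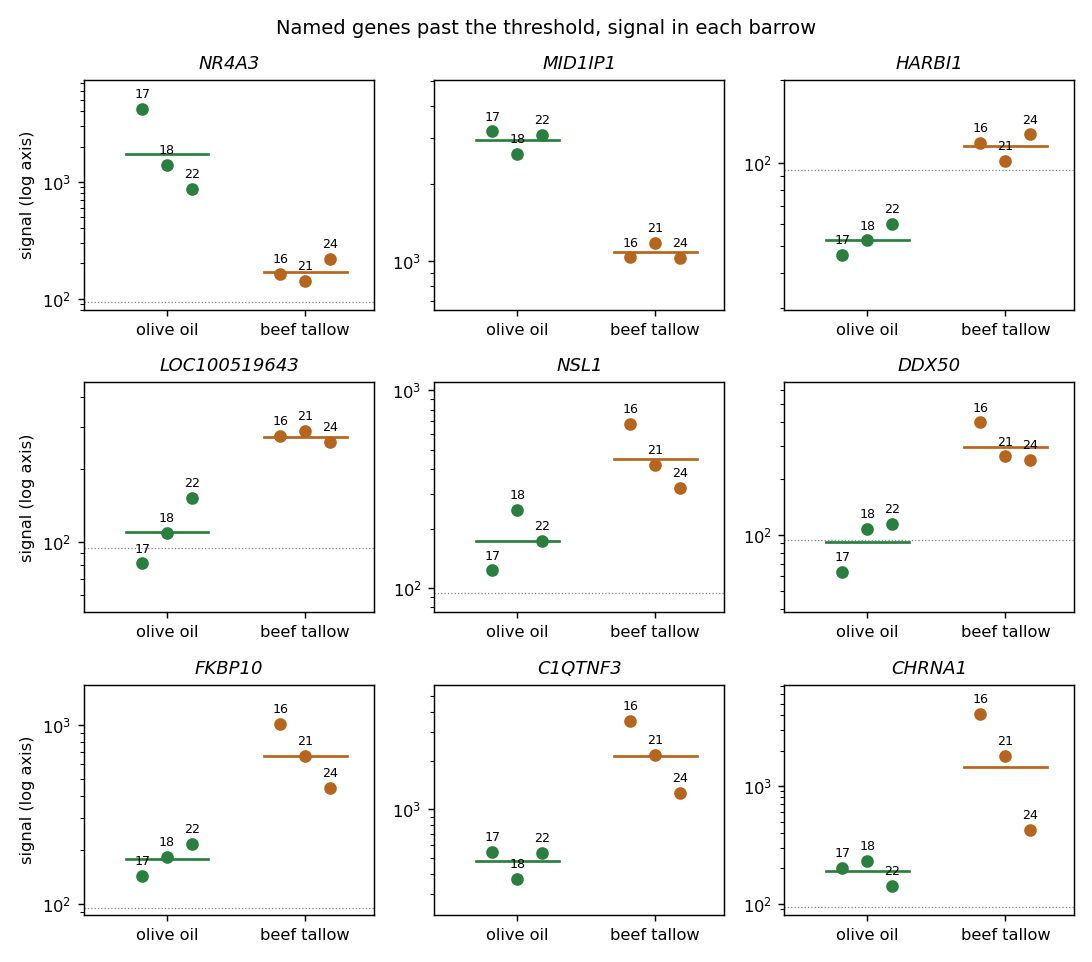
Signal (log axis) of the 9 named genes past the threshold in each of the 3 olive oil barrows (left, green) and the 3 beef tallow barrows (right, brown). Points are pigs with their numbers, horizontal lines are group means on the log2 scale, and the dotted line is the filter signal of 94.1; no gene has overlapping groups. NR4A3 is shown by its probe set past the threshold.

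By the rule for named genes, the next smallest p-values in each direction were also read out, and none of these genes passed. Among those with higher values, LONRF3, a RING finger protein, differed by 1.16 ± 0.25 (adjusted p = 0.0618). GLUL, glutamine synthetase, had signals of 17874, 12596 and 15303 on olive oil, against 3932, 3394 and 6483 on beef tallow, a difference of 1.77 ± 0.41 (adjusted p = 0.0779). Its second probe set, the one with the higher mean signal and so the one used in the lists below, had a smaller difference of 0.84. NR3C1, the glucocorticoid receptor, had signals of 1801, 1072 and 947 against 639, 587 and 651, a difference of 0.97 ± 0.23 (adjusted p = 0.0815). The cytospin gene SPECC1 differed by 2.70, with beef tallow signals of 44.6, 12.3 and 161, 2 of them below the filter signal. The secreted kinase gene PKDCC differed by 1.04, the deubiquitinase gene ZRANB1 by 1.03, ZMAT5 by 0.96, AKIRIN2 by 0.89 and the zinc finger gene HIVEP2 by 0.71. Among those with lower values, CHST14, a dermatan sulfotransferase, differed by -1.09 ± 0.21 (adjusted p = 0.0501). FGD4, an activator of the GTPase Cdc42, differed by -1.14 ± 0.22 (adjusted p = 0.0505). The efflux transporter gene ABCG2 differed by -1.71, with olive oil signals of 31.1, 110 and 31.1, 2 of them below the filter signal. MEG3, an imprinted long noncoding RNA, differed by -1.62 in one probe set and 0.44 in the other. Without beef tallow pig 24, ATF3 (2.39), GLUL (2.05), LONRF3 (1.30), SPECC1 (3.61), CHST14 (-1.21), FGD4 (-1.24), ABCG2 (-1.77) and MEG3 (-1.62) passed. Without pig 16, 17 or 21 no probe set passed, here or in the lists below.

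Genes of 31 lists were then described by 1 probe set each, that with the highest mean signal. Over the 5379 named genes taken this way, 1 was called higher (0.0186%) and 7 lower (0.13%). At an unadjusted p under 0.05, 4.11% were higher and 10.4% lower, 42.6% had a positive difference, and the median was -0.06. Muscle tissue was measured whole, so that fewer cells of a type and less RNA per cell cannot be told apart in any list below.

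Immediate early and stress-induced transcription factors had positive differences throughout, although no member passed by its brightest probe set. All 21 tested genes had a positive difference, 8 of them with an unadjusted p under 0.05, and the median difference was 0.73. ATF3, a stress-induced repressor, had signals of 6703, 8816 and 4078 in the olive oil barrows, against 2000, 702 and 2276 in the beef tallow barrows. The groups did not overlap, and the difference was 2.08 ± 0.48 (adjusted p = 0.0779). KLF10, a zinc finger factor induced by growth factors, had signals of 14894, 8619 and 8821 against 4934, 4204 and 4053, a difference of 1.25 ± 0.36 (adjusted p = 0.116). MYC, a regulator of cell growth, differed by 0.77 ± 0.24 (adjusted p = 0.137), again without overlap. FOS, a subunit of the AP-1 factor, had signals of 20712, 15246 and 2585 against 14094, 3088 and 2445, and the groups overlapped (difference 0.98 ± 0.68, adjusted p = 0.528). Pigs also varied within a diet: the median of the list, as a deviation from the mean of all 24 pigs, was 0.86, 0.57 and -0.31 in the olive oil barrows, against 0.41, -0.52 and -0.57 in the beef tallow barrows. Olive oil pig 22 thus lay below beef tallow pig 16.

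Among genes of protein turnover, all 29 proteasome subunits tested were at or above 0, between 0.00 and 0.50, with a median of 0.20. Of them 2 were higher at an unadjusted p under 0.05, beside 4.11% of all named genes. PSMD1, a subunit of the regulatory particle, had signals of 4467, 4674 and 4364 against 3367, 3229 and 3232, a difference of 0.46 ± 0.18 (adjusted p = 0.232). Of the 15 atrophy and FOXO target genes tested, 10 had a positive and 5 a negative difference, 4 were higher and none lower at an unadjusted p under 0.05, and the median was 0.17. FBXO32, the muscle ubiquitin ligase atrogin-1, had signals of 20434, 18583 and 12599 on olive oil, against 7245, 6471 and 2568 on beef tallow. The groups did not overlap, but the difference of 1.77 ± 0.64 did not pass (adjusted p = 0.198). KLF15, a glucocorticoid-induced factor of muscle metabolism, differed by 0.97 ± 0.29 (adjusted p = 0.122). Of 31 heat shock proteins and chaperones, 20 had a positive and 11 a negative difference, 6 were higher and 1 lower at an unadjusted p under 0.05, and the median was 0.24. STIP1, which links the chaperones HSP70 and HSP90, differed by 0.68 ± 0.25 (adjusted p = 0.202), and PDIA3, a disulfide isomerase, by -0.57 ± 0.22 (adjusted p = 0.237).

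The stress factor DDIT3 (CHOP) had signals of 2816, 2435 and 1211 against 1024, 498 and 793, a difference of 1.45 ± 0.37 (adjusted p = 0.0889). In the same list of amino acid and ATF4 response genes, PSAT1, an enzyme of serine synthesis, had signals of 450, 433 and 438 against 1518, 2734 and 844. It differed in the opposite direction, by -1.78 ± 0.47 (adjusted p = 0.0932), and passed without pig 24 (-2.21). The median of the 19 tested genes was -0.16, and 0.03 with each array centred on its median. Among 7 clock genes, BHLHE40, a repressor that also responds to stress, had signals of 3870, 2466 and 1558 against 755, 667 and 855, a difference of 1.70 ± 0.46 (adjusted p = 0.09999). ARNTL, the clock activator BMAL1, differed by -0.70 ± 0.27 (adjusted p = 0.227).

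Extracellular matrix genes had lower signals on olive oil. Of the 28 fibroblast and matrix genes tested, 26 had a negative difference, 18 were lower and none higher at an unadjusted p under 0.05, and the median was -0.71. No member passed the adjusted threshold. SPP1, the secreted phosphoprotein osteopontin, had signals of 97.9, 66.0 and 135 in the olive oil barrows, against 1052, 2545 and 240 in the beef tallow barrows (difference -3.16 ± 0.73, adjusted p = 0.0779). THBS2, the matricellular protein thrombospondin 2, had signals of 360, 350 and 557 against 2224, 2721 and 911 (difference -2.10 ± 0.50, adjusted p = 0.0815). In both genes pig 24 was the lowest beef tallow pig, yet still above every olive oil pig. COL1A2, a chain of type I collagen, had signals of 949, 1146 and 1306 against 9662, 4788 and 1134. Here pig 24 lay among the olive oil pigs, and the difference was -1.73 ± 0.50 (adjusted p = 0.116). The fibroblast surface protein THY1 differed by -1.0 ± 0.25 (adjusted p = 0.0854) and the matricellular protein POSTN by -1.95 ± 0.52 (adjusted p = 0.0981), both without overlap. POSTN passed without olive oil pig 22 (-2.54). Without pig 24, SPP1 (-4.08), THBS2 (-2.57), COL1A2 (-2.60) and THY1 (-1.19) passed. Their smallest differences without 1 pig were -2.38, -1.78, -1.05 and -0.81, in the same order. Of the 24 such runs, SPP1 passed in 3, THBS2 and THY1 in 2 each and COL1A2 in 1.

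The median of the list per pig was -0.59, -0.33 and 0.01 in the olive oil barrows, against 0.85, 0.59 and -0.02 in the beef tallow barrows, as deviations from the mean of all 24 pigs. Pigs 22 and 24 thus had nearly the same median for matrix genes, while the other 4 pigs lay apart by diet. All 11 tested genes of collagen modification and folding had negative differences (median -0.51), 5 of them with an unadjusted p under 0.05, and FKBP10 passed. CRTAP, a partner of the collagen prolyl 3-hydroxylase, had signals of 336, 381 and 433 against 930, 922 and 679 (difference -1.13 ± 0.33, adjusted p = 0.122). The related isomerase genes FKBP14 and FKBP9 differed by -1.05 ± 0.34 and -0.79 ± 0.25, and FKBP14 passed without pig 24 (-1.43). All 5 tested basement membrane genes were likewise negative (median -0.83). LAMB1, a laminin chain, had signals of 1067, 1212 and 1216 against 2429, 2093 and 1758 (difference -0.84 ± 0.21, adjusted p = 0.0909), and the nidogen gene NID2 differed by -1.0 ± 0.28 (adjusted p = 0.109).

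Fat cell genes also had lower signals on olive oil. Of the 16 adipocyte markers tested, 12 had a negative difference, 7 were lower and 1 higher at an unadjusted p under 0.05, and the median was -1.19. C1QTNF3 passed. ADIPOQ, the fat cell hormone adiponectin, had signals of 1347, 909 and 1277 in the olive oil barrows, against 3252, 8017 and 2335 in the beef tallow barrows (difference -1.76 ± 0.82, adjusted p = 0.318). FABP4, the fatty acid binding protein of fat cells, had signals of 4728, 8037 and 7521 against 12619, 16802 and 13609 (difference -1.11 ± 0.38, adjusted p = 0.169). PPARG, the master regulator of fat cell differentiation, had signals of 189, 188 and 218 against 389, 802 and 351 (difference -1.27 ± 0.56, adjusted p = 0.297). In these 3 genes the groups did not overlap, and pig 21 was the highest. The lipid droplet protein CIDEA differed by -1.46 ± 0.50 and the hormone-sensitive lipase LIPE by -1.95 ± 0.71, while LPL, lipoprotein lipase, differed by -0.54 ± 0.29 and LEP, leptin, by 0.04 ± 0.35. The summed signal of the adipocyte markers lay between 31586 and 32284 on olive oil and between 41062 and 58425 on beef tallow.

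Genes of fatty acid and triglyceride synthesis went with the adipocyte markers in direction, and the part of fat cell content in their difference was not tested. Of the 14 tested, 10 had a negative difference and 6 were lower at an unadjusted p under 0.05, with a median of -0.72. FASN, fatty acid synthase, had signals of 1636, 913 and 1031 against 2109, 8929 and 3948, with pig 21 the highest (difference -1.86 ± 0.82, adjusted p = 0.294). SCD, the desaturase that makes oleic from stearic acid, had signals of 5464, 953 and 2668 against 2380, 21572 and 7590. Its groups overlapped, since olive oil pigs 17 and 22 lay above beef tallow pig 16 (difference -1.60 ± 1.13, adjusted p = 0.535). FADS1, a desaturase of polyunsaturated fatty acids, had dim signals of 85.1, 77.1 and 50.5 against 171, 169 and 127 (difference -1.14 ± 0.24, adjusted p = 0.0598). All 3 olive oil values of FADS1 were below the signal used as the filter, so the size of its difference is uncertain. With that limit, FADS1 passed without pig 24 (-1.28). DGAT2, which adds the last fatty acid to triglycerides, differed by -2.18 ± 0.82, and the citrate carrier SLC25A1 by -0.95 ± 0.29 (adjusted p = 0.127). MID1IP1, which acts on the same route, was higher, as given above.

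Genes by which muscle burns fuel showed smaller differences. Of 26 genes of fatty acid uptake and oxidation, 17 had a positive difference, the median was 0.14, and only ACSL3, a fatty acid activating enzyme, had an unadjusted p under 0.05, at -0.73. CPT1B, the muscle gate for fatty acids into mitochondria, differed by 0.07 ± 0.38 and PDK4, which brakes glucose oxidation, by 0.03 ± 0.28. UCP3, a mitochondrial carrier protein, differed by 0.50 ± 0.51. None of the 54 genes of oxidative phosphorylation had an unadjusted p under 0.05, and their median was 0.12. The 22 genes of the tricarboxylic acid cycle had a median of 0.23, with 19 positive. PPARGC1A, a coactivator of mitochondrial genes, had signals of 21067, 32758 and 10823 on olive oil, against 10430, 2700 and 5308 on beef tallow. Pig 22 was only just above pig 16, and the difference of 1.88 ± 0.63 did not pass (adjusted p = 0.162). Of 23 glycolysis and glycogen genes 1 was higher and 3 were lower at an unadjusted p under 0.05, near the 4.11% and 10.4% of all named genes. Among them, HK1, a hexokinase, differed by -1.04 ± 0.30, UGP2, which makes the glycogen precursor UDP-glucose, by 0.66 ± 0.20 and LDHB, a lactate dehydrogenase, by -0.70 ± 0.25.

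Fibre type, blood vessel and immune cell markers gave little difference. The 13 slow fibre genes had a median of -0.01 and the 11 fast fibre genes one of -0.03; it was -0.03 for 14 endothelial genes, 0.02 for 9 smooth muscle genes and 0.04 for 19 leukocyte and macrophage genes. All of these changed sign under at least 1 of quantile normalization, array centring and leaving out a pig. MYH7, the slow myosin heavy chain, differed by -0.05 ± 0.23. No leukocyte marker and no smooth muscle marker had an unadjusted p under 0.05. Of the endothelial genes, 6 had a positive and 8 a negative difference, and 1 was higher and 2 were lower at that p. The shares over all named genes were 4.11% and 10.4%. ERG, an endothelial factor, differed by -0.75 ± 0.22 (adjusted p = 0.12), and ESAM, another endothelial marker, by 0.48. Of 22 interferon response genes, 16 had a negative difference (median -0.39). At an unadjusted p under 0.05, 3 of them were lower, near the 10.4% of all named genes, with RSAD2 among them at -1.59 ± 0.70. The 55 ribosomal protein genes had a median of -0.11, which was 0.07 with arrays centred, and the 14 genes of cholesterol synthesis and uptake one of -0.13, which was 0.06 with arrays centred and 0.01 after quantile normalization.

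Beside CHRNA1, 3 genes of the neuromuscular junction and of denervated muscle were tested. NCAM1, a cell adhesion molecule of immature and denervated fibres, had signals of 98.8, 133 and 160 against 237, 215 and 175 (difference -0.69 ± 0.22, adjusted p = 0.151). MYOD1, the myogenic regulator, had signals of 952, 464 and 646 against 310, 288 and 440, a difference of 0.95 ± 0.30 (adjusted p = 0.147). The growth arrest gene GADD45A differed by 0.67 ± 0.39. Among growth factors, IGF2, an insulin-like growth factor, had signals of 5975, 5855 and 6680 on olive oil, against 11455, 8260 and 9411 on beef tallow (difference -0.64 ± 0.20, adjusted p = 0.143), and its 9 probe sets ranged between -0.85 and 0.47. IGF2R, its clearance receptor, differed by 0.80 ± 0.24, and IGF1 by -0.23 ± 0.28. SFRP1, a secreted antagonist of Wnt signalling, had signals of 194, 122 and 180 against 955, 1148 and 308 (difference -2.10 ± 0.58, adjusted p = 0.109), and it passed without pig 24 (-2.69).

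**Figure D3:**
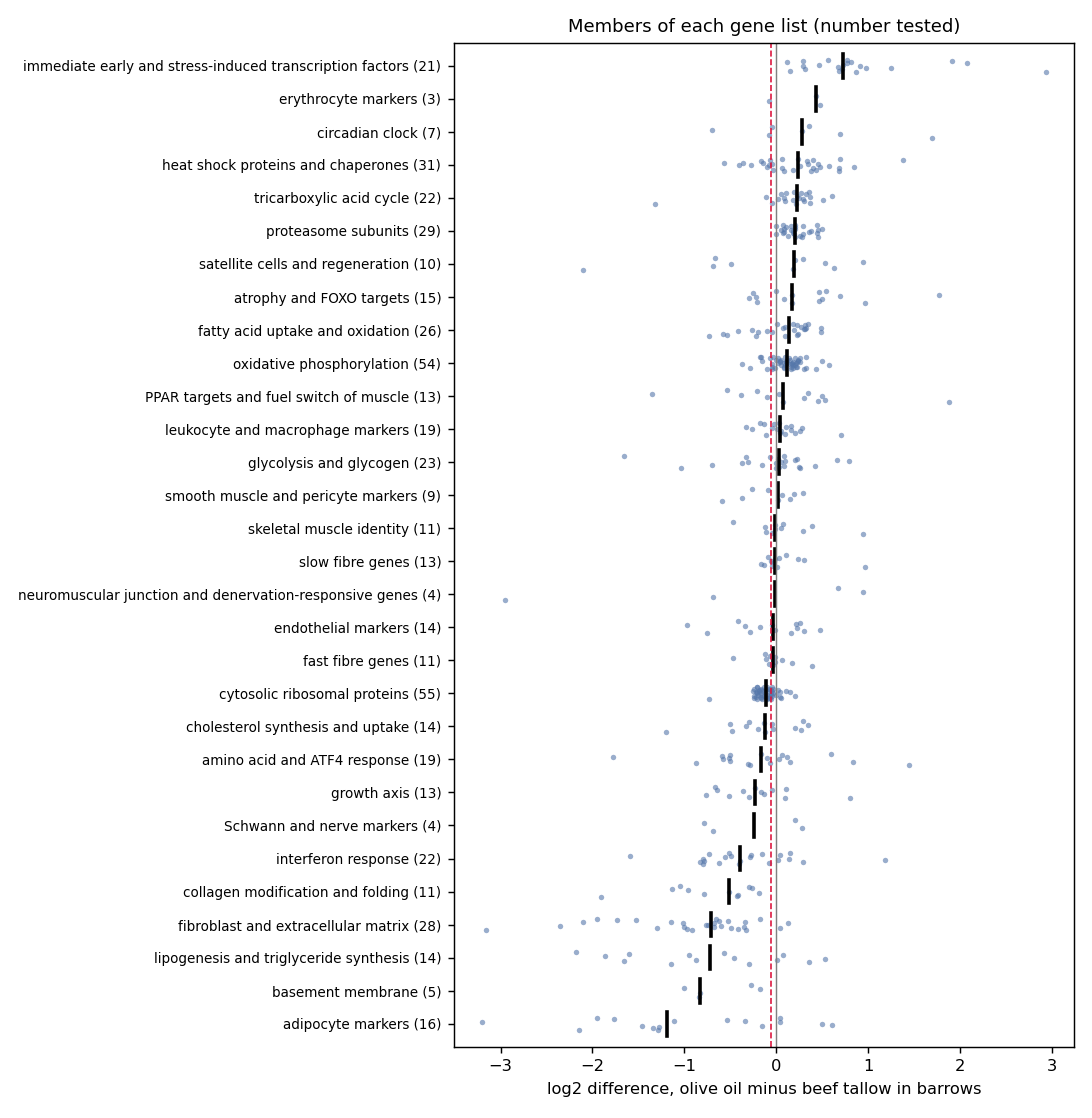
Log2 difference, olive oil minus beef tallow in barrows (horizontal axis), of every tested gene of 30 lists, with the number of genes in brackets. Points are genes, black bars list medians, the grey line 0 and the dashed red line the median of all named genes (-0.06). Medians run between -1.19 for adipocyte markers and 0.73 for immediate early genes.

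The same fats were compared in gilts to see whether the difference belonged to barrows. In gilts no probe set (0.0%) passed for olive oil minus beef tallow, and 390 of 14399 (2.71%) had an unadjusted p under 0.05. The test of the difference between the sexes called none of the 14399 probe sets either (0.0%, smallest adjusted p = 0.317), while 1608 (11.2%) had an unadjusted p under 0.05. This last count depended on single pigs. It was 832 without olive oil gilt 12, 2525 without olive oil gilt 7 and 765 without pigs 11, 12 and 16. The median absolute difference was 0.251 in barrows and 0.162 in gilts. NR4A3 differed by 3.33 ± 0.63 in barrows and 0.00 ± 0.63 in gilts, whose signals were 427 ± 414 on olive oil and 342 ± 151 on beef tallow (SD, n = 3 each). CHRNA1 differed by -2.95 ± 0.53 in barrows and -0.11 ± 0.53 in gilts, whose signals were 372 ± 129 on olive oil and 391 ± 93.1 on beef tallow. The difference between the sexes was 3.32 for NR4A3 (unadjusted p = 0.0013) and -2.84 for CHRNA1 (unadjusted p = 0.00119), and neither passed after adjustment. Both genes were chosen on the barrow values, which this test uses again, so these p-values are not free of that choice.

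Among the smallest p-values for a difference between the sexes were those of HARBI1, ENPP2, NSL1, GM2A and LOC100519643. ENPP2, the lysophospholipase D autotaxin, differed by -1.12 ± 0.35 in barrows and 1.13 ± 0.35 in gilts. Its barrow signals were 125, 195 and 236 on olive oil, against 354, 561 and 303 on beef tallow, while in gilts they were 358 ± 189 on olive oil and 155 ± 56.3 on beef tallow. The opposite directions gave a difference between the sexes of -2.25 (unadjusted p = 0.000191). GM2A, a lysosomal activator of ganglioside breakdown, differed by -0.71 in barrows and 0.86 in gilts. For whole lists the medians were 0.73 in barrows and 0.24 in gilts for immediate early genes, -0.71 and 0.25 for fibroblast and matrix genes, -1.19 and 0.18 for adipocyte markers, and 0.20 and -0.11 for proteasome subunits. At an unadjusted p under 0.05, 15 of the 28 matrix genes and 5 of the 16 adipocyte markers had a lower difference in barrows than in gilts, beside 7.88% of all tested probe sets. That share covers all probe sets, not 1 per gene. The lists were chosen with earlier results known and the counts use the same barrow values again, so they give no separate support.

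**Figure D4:**
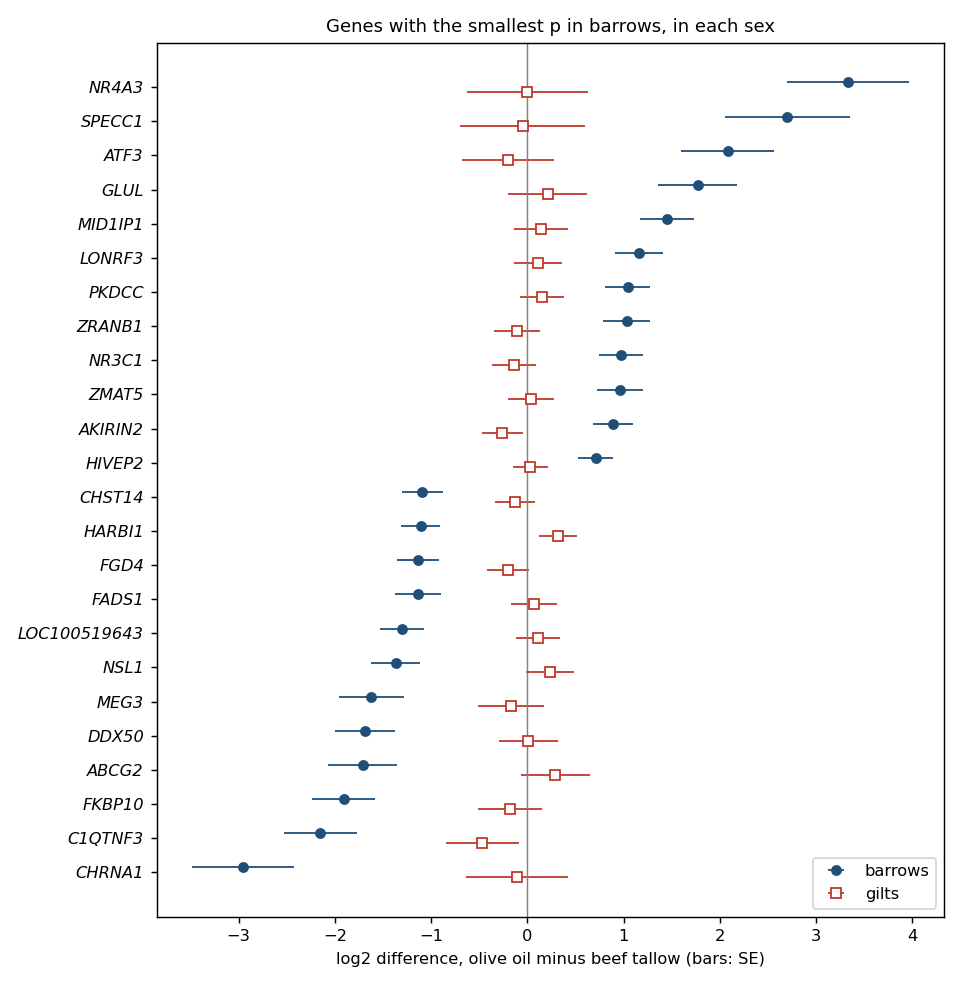
Log2 difference, olive oil minus beef tallow (horizontal axis), of the 24 genes with the smallest p in barrows, 12 in each direction. Filled circles are barrows, open squares gilts, and bars are standard errors of the fit. The genes were chosen on the barrow values, which lie between -2.95 and 3.33.

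Coconut oil and soybean oil barrows were set against the same 3 beef tallow barrows, so these comparisons share those pigs with the olive oil comparison and are given side by side. For coconut oil minus beef tallow 303 probe sets passed (2.1%), and for soybean oil minus beef tallow none did (0.0%), with 845 (5.87%) at an unadjusted p under 0.05. The difference of NR4A3 was 3.33 with olive oil, 2.94 with coconut oil and 1.57 with soybean oil. For C1QTNF3 it was -2.15 with olive oil, -2.38 with coconut oil and -1.54 with soybean oil. FKBP10 gave -1.91, -1.91 and -1.28, and CHRNA1 -2.95, -2.72 and -2.21, in the same order of fats. MID1IP1 gave 1.45, 0.96 and 0.54, and LOC100519643 gave -1.30, -0.48 and -0.45. The median of the fibroblast and matrix list was -0.71, -1.11 and -0.46, that of the adipocyte markers -1.19, -1.49 and -0.38, and that of the immediate early genes 0.73, 0.07 and 0.21.

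The signals of the beef tallow barrows can also be read against the other 9 barrows. CHRNA1 had 201, 233 and 143 on olive oil, between 183 and 272 on coconut oil and between 271 and 424 on soybean oil, against 4089, 1806 and 421 on beef tallow. Pigs 16 and 21 alone were far above the rest, and pig 24 lay within the soybean oil range. ATF3 lay between 3445 and 5916 on coconut oil and between 4395 and 8180 on soybean oil, and the 3 beef tallow barrows were the lowest of the 12. KLF10 had differences against beef tallow of 1.25 with olive oil, 0.12 with coconut oil and 0.30 with soybean oil. FBXO32 differed by 1.77 with olive oil, 1.24 with coconut oil and -0.20 with soybean oil.

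**Figure D5:**
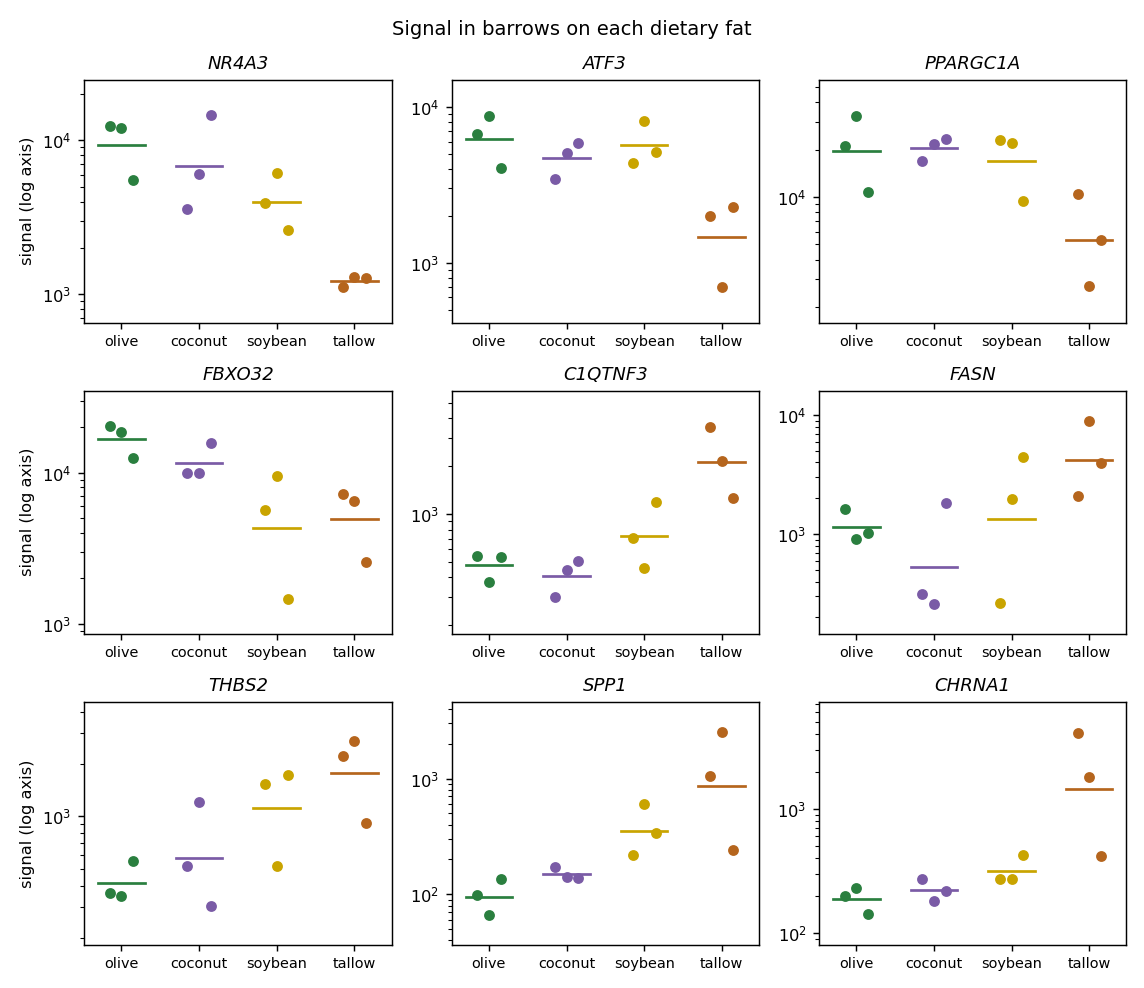
Signal (log axis) of 9 genes in barrows on olive oil, coconut oil, soybean oil and beef tallow, 3 pigs per fat. Points are pigs and horizontal lines group means on the log2 scale. The genes were chosen after their values were seen, NR4A3 by its brighter probe set; for NR4A3 and ATF3 the 3 beef tallow pigs are the lowest of the 12.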

How the data were processed

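Per the labels' protocols, total RNA was extracted with TRIzol from powdered muscle and amplified with a 3' one-cycle kit. The authors deposited 1 table of probe set intensity values on a linear scale, 1 column per pig; how probe sets were summarised is not stated. Trimmed by 2% at each end, every array had a mean between 500.1 and 500.2, so the deposited intensities were scaled to a common mean, while array medians differed. Of 24123 probe sets, 124 were controls. Of the others, 10110 had 1 gene symbol in the supplied platform annotation, 157 several and 13732 none; 9973 of the 10110 matched RefSeq's Sscrofa11.1 table, used for names alone.

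Values were turned into log2(signal + 1). Probe sets with a mean signal over 24 arrays at or above the 40th percentile (94.1) entered a linear model (R 4.3.3, limma 3.58.1, with lmFit and eBayes and 1 mean for each of 8 groups, all 24 arrays and 16 residual degrees of freedom). Two-sided p-values were adjusted by Benjamini and Hochberg's method within each contrast and called under 0.05, and the fit was tested on simulated data. Pigs were treated as independent, since their pens are not stated, so no p allows for pens. Arrays give no counts, and the number of pigs limits the precision.

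Named genes were the 12 largest differences per direction past the threshold, or, where fewer than 8 passed, the 12 smallest p; up to 4 members of each list by p and any that passed; the 6 smallest p for the difference between the sexes, 1 of which is not reported here; and 22 genes always read, of which COL1A1 was not analysed here. The comparison, the members and the lists were chosen with earlier results of these data known, so no list was tested as a whole. Alternatives were no filter, a 60th percentile filter, quantile normalization, median centring, a pseudocount of 16, fits on 12 or 6 arrays, array weights, trended and robust spread, a single probe set per gene, and leaving out pigs.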

Additional observations from a re-analysis of the deposited data

How the results depend on the processing

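Of the 12 calls for olive oil minus beef tallow in barrows, none was made with no signal filter. With a filter at the 60th percentile (a mean signal of 251.5) 6 were made, and the rest were too dim to be tested there. After quantile normalization 1 was made, and likewise 1 each with the 6 arrays of the comparison alone and without pigs 11, 12 and 16. The 12 barrow arrays alone gave 20 calls, 4 of them among the 12, and array weights gave 33, with all 12 among them. Leaving out 1 pig at a time gave between 0 and 166 calls. Array centring gave 12 calls, of which 33.3% were lower, against 66.7% of the reported calls; a pseudocount of 16 gave 15, and both trended and robust spread and a single probe set per gene gave 11. The test of the difference between the sexes gave 0 calls in each of these settings it was fitted in, and between 0 and 3 without 1 pig (3 on leaving out pig 7, 2 for pig 24, and 1 for pig 12, 18 or 22).

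Over 150 named probe sets, 11 signs reversed among the alternatives other than leaving out 1 pig, each of a gene that had not passed. With array centring, the differences of MYH7 (0.14), NDUFS5 (0.01), TPM3 (0.01), TNNC2 (0.07), CXCR4 (0.00) and HBB (0.10) reversed. With array weights MYH7 was 0.02, and without pigs 11, 12 and 16 MYH7 was 0.10, HMGCS1 -0.05, TAGLN 0.03 and MBP -0.20. Without 1 pig, the range was -0.23 to 0.10 for MYH7, -0.05 to 0.46 for HMGCS1, -0.69 to 0.03 for TAGLN, -0.20 to 0.91 for MBP, -0.28 to 0.05 for HBB, -0.05 to 0.40 for MYL3, -0.11 to 0.20 for LEP, -0.28 to 0.30 for CPT1B and -0.11 to 0.21 for PDK4. The cause was not tested. No paired analysis was possible because the running numbers of the pigs are shared by no 2 groups. With 3 pigs per group and probe sets such as HARBI1 dimmer than the filter signal in a whole group, small differences were not detectable.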
